A study of Mus musculus with 4 samples.

Results

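The 10 genes described here, Piwil1, Piwil2, Ddx4, Ddx25, Mael, Mov10l1, Pld6, Asz1, Gtsf1 and Henmt1, encode proteins of the piRNA pathway and of the chromatoid body, the RNA granule of male germ cells in which TDRD6 resides. They were chosen by name, and all 10 were found among the 37718 gene rows of the count tables. Together they held 145 of 207562 introns, 192 of 359565 exon segments, 156 of 240574 annotated junctions and 13 of 5005 unannotated junctions. None of their rows joined them with an overlapping gene.

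piRNAs are small RNAs of the germ line that are cut from long precursor transcripts, loaded onto PIWI proteins and trimmed and methylated at their end, and they silence transposons and, in meiosis, are made in large amounts from dedicated loci. The work is shared between germ granules next to the nucleus, which hold helicases, Tudor domain proteins and PIWI proteins, and the outer membrane of mitochondria, where precursors are cut. Tudor domains bind methylated arginines of partner proteins, and PIWI proteins carry such arginines. In spermatocytes the granules appear as fine perinuclear material that gathers into the chromatoid body of round spermatids.

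RNA was sequenced from hCD4+ cells sorted with magnetic beads from testes of mice at 20 days post partum, a preparation of late prophase I spermatocytes, mostly diplotene. The human CD4 marker was driven by the endogenous Tdrd6 promoter, so that every mouse, controls included, carried at least 1 disrupted Tdrd6 allele. The comparison was between 2 Tdrd6-/- and 2 Tdrd6+/- samples, each pooled from at least 4 mice, and no sample without a disrupted allele was analysed. In such bulk samples fewer cells of a type and less RNA per cell cannot be told apart, and the labels do not say that the 2 samples of a genotype came from separate preparations, so the p-values measure only the spread between these samples.

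Gene rows received 26454326 to 31388750 counts per sample and introns 9603669 to 13937818, with the fewest intron counts in Tdrd6-/- replicate 2. Tdrd6 itself, the disrupted gene, was counted at 1269 and 1412 CPM (counts in a library scaled to a fixed total of gene counts) in the control samples and at 11.35 and 12.5 CPM in the Tdrd6-/- samples, which fits the labels (log2 change -6.81, SE 0.17, adjusted p = 8.403e-18, edgeR). Of 8 markers of pachytene and diplotene spermatocytes all were counted, and their summed level was 6471 and 6947 CPM in Tdrd6+/- and 7152 and 8251 CPM in Tdrd6-/-. Of the same list 2 were called higher in Tdrd6-/-, Sycp1 and Spag6, the latter in a row shared with an overlapping gene. Of the 4 spermatid markers tested 2, Acrv1 and Spaca1, were called higher as well, where 1.02% of all genes tested were called higher. The summed level of the 8 spermatid markers was 12.9 to 16.7 CPM in Tdrd6+/- and 25.1 to 26.4 CPM in Tdrd6-/-. Izumo1 in the spermatid list and Insl3 in the Leydig list also had rows shared with an overlapping gene, which their sums include. The protamine genes Prm1 and Prm2 and the transition protein genes Tnp1 and Tnp2 were at or near 0 in all samples. No marker of spermatogonia, Sertoli cells, Leydig cells or peritubular, endothelial and macrophage cells was called, although 7 of the 8 spermatogonial and early meiotic markers had a positive log2 change (median 0.35), with a summed level of 24.3 and 23.5 CPM in Tdrd6+/- against 28.4 and 32.5 CPM in Tdrd6-/- cells. The summed levels of the 3 somatic lists overlapped between the genotypes, at 6.61 to 48.5 CPM. The part of these marker differences in the results on the 10 genes was not tested.

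The level of the 10 genes was first compared per kb of annotated exon, since counts grow with transcript length. Means and SDs of levels were taken over all 4 samples of both genotypes. Such an SD therefore holds the difference between genotypes as well as that between replicates. Mael, a granule protein needed for transposon silencing and for pachytene piRNAs, was the most abundant, at 768 ± 80.4 CPM per kb (SD, n = 4), which ranked 18 from the top among 18827 genes. Ddx4, the helicase MVH that marks germ granules, followed at 276 ± 25.6 CPM per kb (SD, n = 4), and Piwil1, the PIWI protein MIWI of meiotic and postmeiotic cells, at 203 ± 39.3 CPM per kb (SD, n = 4). These 3 genes stood apart from each other and from the remaining 7 in all 4 samples on this scale. Between Ddx4 and Piwil1 the gap was narrow, with 254.5 CPM per kb as the lowest value of Ddx4 and 253.6 as the highest of Piwil1.

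The middle of the order held Ddx25 at 92.8 ± 7.95 CPM per kb, Gtsf1 at 89.5 ± 9.97 and Piwil2 at 78.2 ± 11.2 (SD, n = 4 each). The ranges of Ddx25 and Gtsf1 overlapped, and so did those of Gtsf1 and Piwil2. Pld6, the mitochondrial nuclease that cuts piRNA precursors, was measured at 59.2 ± 7.29 CPM per kb and Mov10l1, the helicase that feeds precursors into processing, at 43.03 ± 7.89 (SD, n = 4 each), again with overlapping ranges. Henmt1 and Asz1 were lowest, at 22.7 ± 3.15 and 19.0 ± 1.74 CPM per kb (SD, n = 4 each), and their ranges overlapped.

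The annotated exon length weighed on this order. The median CPM over the annotated junctions of a gene, which needs no length and was added after the values were seen, put Ddx25 second at 51.1 ± 5.85 CPM per junction, behind Mael at 109 ± 10.9 and ahead of Ddx4 at 35.1 ± 0.743 (SD, n = 4 each). Ddx25 encodes the hormone-regulated helicase GRTH and has 6934 bp of annotated exon, the most of the 10 genes. Piwil1 came after Ddx4 at 31.4 ± 6.68 CPM per junction (SD, n = 4), and the ranges of Ddx4 and Piwil1 overlapped on this measure. Pld6, Asz1 and Henmt1 lay between 3.41 and 3.79 CPM per junction on average, with overlapping ranges of neighbours. Both measures thus placed Mael at the top, and both placed Asz1 and Henmt1 in the last 2 ranks.

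**Figure D1:**
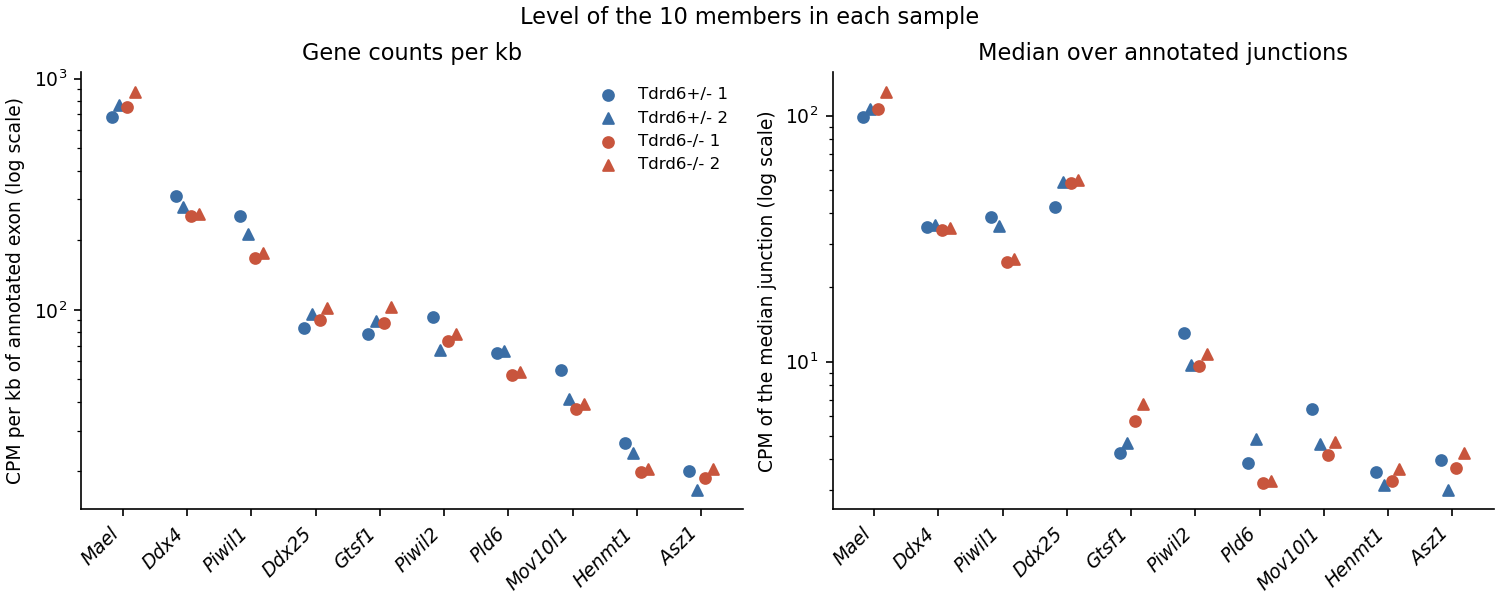
Level of each gene in each sample, with gene counts as CPM per kb of annotated exon on the left and the CPM of the median annotated junction on the right, both on a log axis (blue, Tdrd6+/-; red, Tdrd6-/-; circle, replicate 1; triangle, replicate 2). Mael is highest on both sides, at 679 to 874 CPM per kb, and Ddx25 moves from the fourth place on the left to the second on the right.

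Whether the absence of TDRD6 was accompanied by a change in the RNA of these genes was asked with edgeR's quasi-likelihood test on 16555 genes, with Benjamini-Hochberg adjustment and a false discovery rate of 0.1. All 10 genes passed the filter on low counts. One of the 10 was called, Piwil1, and it was lower in Tdrd6-/- cells, where 4.8% of all genes tested were called in either direction, 1.02% as higher and 3.78% as lower. The median log2 change was -0.14 over the 10 genes and 0.01 over all genes tested. Changes ran from -0.44 to 0.18, with 4 positive and 6 negative.

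Piwil1 lies on chromosome 5 (128702524 to 128755474, plus strand) and was counted at 1105 and 928 CPM in Tdrd6+/- and at 732 and 765 CPM in Tdrd6-/- cells. Both Tdrd6-/- samples lay below both Tdrd6+/- samples, a log2 change of -0.44 (SE 0.13, 0.736-fold, adjusted p = 0.0773, edgeR). Its adjusted p was 0.101 with RLE in place of TMM factors, 0.355 with no filter on low counts, 0.369 with replicate 1 of Tdrd6+/- left out, and 0.338 and 0.384 with replicate 1 or replicate 2 of Tdrd6-/- left out, so that these settings ended the call, while the log2 change stayed between -0.56 and -0.30 over all settings that left out a sample.

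Piwil2, the PIWI protein MILI, which is already present in earlier germ cells, showed no such difference. It was counted at 494 and 355 CPM in Tdrd6+/- and at 387 and 417 CPM in Tdrd6-/- cells (log2 change -0.08, SE 0.15, adjusted p = 0.889, edgeR). Its 2 control samples were farther apart than the genotypes. Gtsf1, a small zinc finger protein that works with PIWI proteins, was counted at 109 and 124 CPM in Tdrd6+/- and at 122 and 142 CPM in Tdrd6-/- cells (log2 change 0.18, SE 0.14, adjusted p = 0.617, edgeR), and its ranges overlapped.

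The helicases and granule proteins were not called. Ddx4 was counted at 938 and 841 CPM in Tdrd6+/- and at 767 and 784 CPM in Tdrd6-/- cells, without overlap, with a log2 change of -0.20 (SE 0.13, adjusted p = 0.551, edgeR). Ddx25 was at 576 and 667 CPM against 628 and 705 CPM (log2 change 0.10, SE 0.13, adjusted p = 0.825, edgeR). Mael, at 1177 and 1329 CPM against 1304 and 1515 CPM, gave a log2 change of 0.17 (SE 0.13, adjusted p = 0.65, edgeR). For Ddx25 and Mael the samples of the 2 genotypes overlapped.

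Among the genes of precursor processing, Mov10l1, Pld6 and Henmt1 had log2 changes close to each other. Mov10l1 was counted at 229 and 172 CPM in Tdrd6+/- and at 157 and 163 CPM in Tdrd6-/- cells (log2 change -0.32, SE 0.14, adjusted p = 0.285, edgeR), and the value rested on the controls: it was -0.51 (adjusted p = 0.0376) without Tdrd6+/- replicate 2 and -0.093 (adjusted p = 0.871) without Tdrd6+/- replicate 1. Pld6 was at 114 and 116 CPM against 91.6 and 94.6 CPM (log2 change -0.31, SE 0.13, adjusted p = 0.274, edgeR). Henmt1, which methylates the ends of piRNAs, was at 70.8 and 64.5 CPM against 53.0 and 54.6 CPM (log2 change -0.33, SE 0.14, adjusted p = 0.27, edgeR). In all 3 genes both Tdrd6-/- samples lay below both controls, and none was called. Asz1, the scaffold protein GASZ of the mitochondrial outer membrane, was at 56.9 and 47.2 CPM against 53.1 and 58.2 CPM, with overlap (log2 change 0.10, SE 0.15, adjusted p = 0.854, edgeR).

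In 5 of the 10 genes both Tdrd6-/- samples were thus below both Tdrd6+/- samples, and in 0 above, whereas 23.4% of all genes tested were lower without overlap and 20.1% higher. With 2 samples against 2, an exact permutation test of a single gene cannot give a two-sided p below 0.33.

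Of 24 other genes of the pathway and of germ granules, 3 were called, 1 higher and 2 lower, beside 4.8% of all genes tested (1.02% higher and 3.78% lower), with a median log2 change of -0.04. Tdrkh, a Tudor domain protein of mitochondria that binds PIWI proteins and works beside Pld6 and Asz1, was at 101 and 83.6 CPM in Tdrd6+/- and at 58.1 and 58.6 CPM in Tdrd6-/- cells (log2 change -0.66, SE 0.14, adjusted p = 0.0093, edgeR). Tex15, which acts with Piwil4 in silencing transposons, was at 23.7 and 25.4 CPM against 49.99 and 37.87 CPM (log2 change 0.84, SE 0.17, adjusted p = 0.00514, edgeR). Without Tdrd6-/- replicate 2 Tdrkh did not pass (adjusted p = 0.112), and without Tdrd6-/- replicate 1 Tex15 did not (adjusted p = 0.132). With no filter on low counts neither passed (adjusted p = 0.196 for Tdrkh and 0.161 for Tex15, edgeR). D1Pas1, a helicase gene without introns, was at 357 and 376 CPM against 173 and 153 CPM (log2 change -1.17, SE 0.13, adjusted p = 2.296e-05, edgeR). Similar genes such as Ddx3x could share its reads, which was not tested. The remaining 21, among them Tdrd1, Tdrd5, Tdrd7, Tdrd9 and Rnf17, were not called. Kif17 was counted in a row shared with an overlapping gene.

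**Figure D2:**
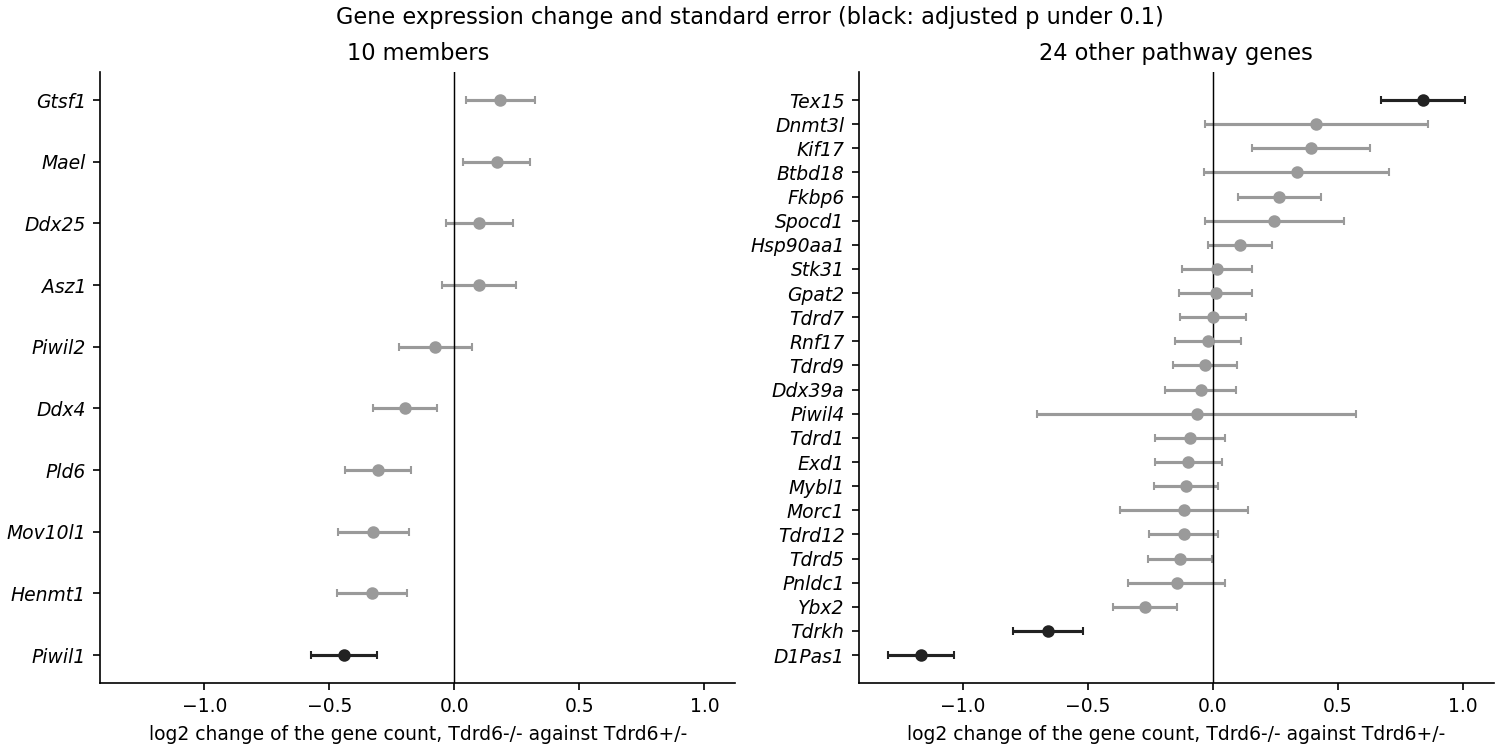
Log2 change of the gene count in Tdrd6-/- against Tdrd6+/- cells, with its standard error, for the 10 genes and for 24 other genes of the pathway (2 samples a genotype; black, adjusted p under 0.1 in edgeR's test). Only Piwil1 is black on the left, at -0.44, and Tex15, Tdrkh and D1Pas1 are black on the right.

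Splicing was read from 2 further sets of counts, in which every exon segment and junction was compared with the rest of its gene and every intron with the other introns of its gene. The log2 change of such a share is called usage here, and it does not see a change that all parts of a gene have in common. Of the exon segments of the 10 genes 174 of 192 passed the filter on the mean count and were tested, as were 140 of 156 annotated and 3 of 13 unannotated junctions. Called were 2 exon segments and 1 junction, all in Ddx4 and all higher in Tdrd6-/- cells, where 0.221% of all exon segments and junctions tested were called in either direction, 0.148% as higher and 0.0731% as lower.

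Ddx4 lies on the minus strand of chromosome 13 of GRCm38 (112598333 to 112652475) and its segments and junctions are numbered along the chromosome, so that its 5′ end carries the highest numbers. The called junction was junction 43, which joins the second and the third exon across an intron of 6765 bp. The exon ends it joins are shown with those of its neighbours toward the 5′ and 3′ side, because the called features of Ddx4 lie at these joins. Each line gives 12 bases of the upstream exon in lower case and 12 bases of the downstream exon in capitals, 5′ to 3′, from the GENCODE M21 transcripts.
Ddx4 junction 44, exon 1 to exon 2 (chr13:112651419-112652275): tggagcggagagGAACCTGAAGCT
Ddx4 junction 43, exon 2 to exon 3 (chr13:112644567-112651331): gtatttgagaagGATAAATATTCT
Ddx4 junction 42, exon 3 to exon 4 (chr13:112641228-112644508): cagcttcatcagAAATGGAAGATG

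Junction 43 held 2.21% and 2.46% of the Ddx4 count in Tdrd6+/- and 3.24% and 3.16% in Tdrd6-/- cells, with 542, 577, 786 and 791 counts in this order. Its usage was higher by 0.47 on the log2 scale (SE 0.12, adjusted p = 0.0484, DESeq2 likelihood ratio test). The groups did not overlap. Junctions 44 and 42 gave log2 changes of 0.50 (SE 0.16, adjusted p = 0.422) and 0.39 (SE 0.12, adjusted p = 0.272) in the same DESeq2 test and were not called.

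The 2 called exon segments flank this junction. Segment 21, the second exon (chr13:112651332-112651418), in which the coding sequence begins, held 4.85% and 4.90% of the Ddx4 count in Tdrd6+/- and 6.21% and 6.50% in Tdrd6-/- cells (log2 change 0.40, SE 0.10, adjusted p = 0.0472, DESeq2). Segment 20, the third exon (chr13:112644509-112644566), held 5.78% and 6.40% against 8.10% and 7.58% (log2 change 0.39, SE 0.10, adjusted p = 0.0845, DESeq2). Both Tdrd6-/- samples were above both controls in each segment. A fragment can be counted on several segments and junctions, so the 3 features share fragments and are not independent.

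The changes of Ddx4 were graded along the transcript. From the 5′ end the log2 change was positive in the first 16 of 22 exon segments and negative in the last 6, from 0.48 in the first exon to -0.28 in the last, which is 697 bp long and holds the end of the coding sequence and the 3′ UTR. The 21 junctions tested behaved alike, with 15 positive and 6 negative, and the first negative value was at junction 17 from the 5′ end. Unadjusted p was under 0.05 for 9 of the 22 segments and 8 of the junctions. Neighbouring features share fragments and the share over all features is not given here, so these counts cannot be read as an excess. The last exon received 5365 and 4263 counts in the controls against 4101 and 4291 in Tdrd6-/- cells, whereas the first received 250 and 190 against 300 and 324.

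**Figure D3:**
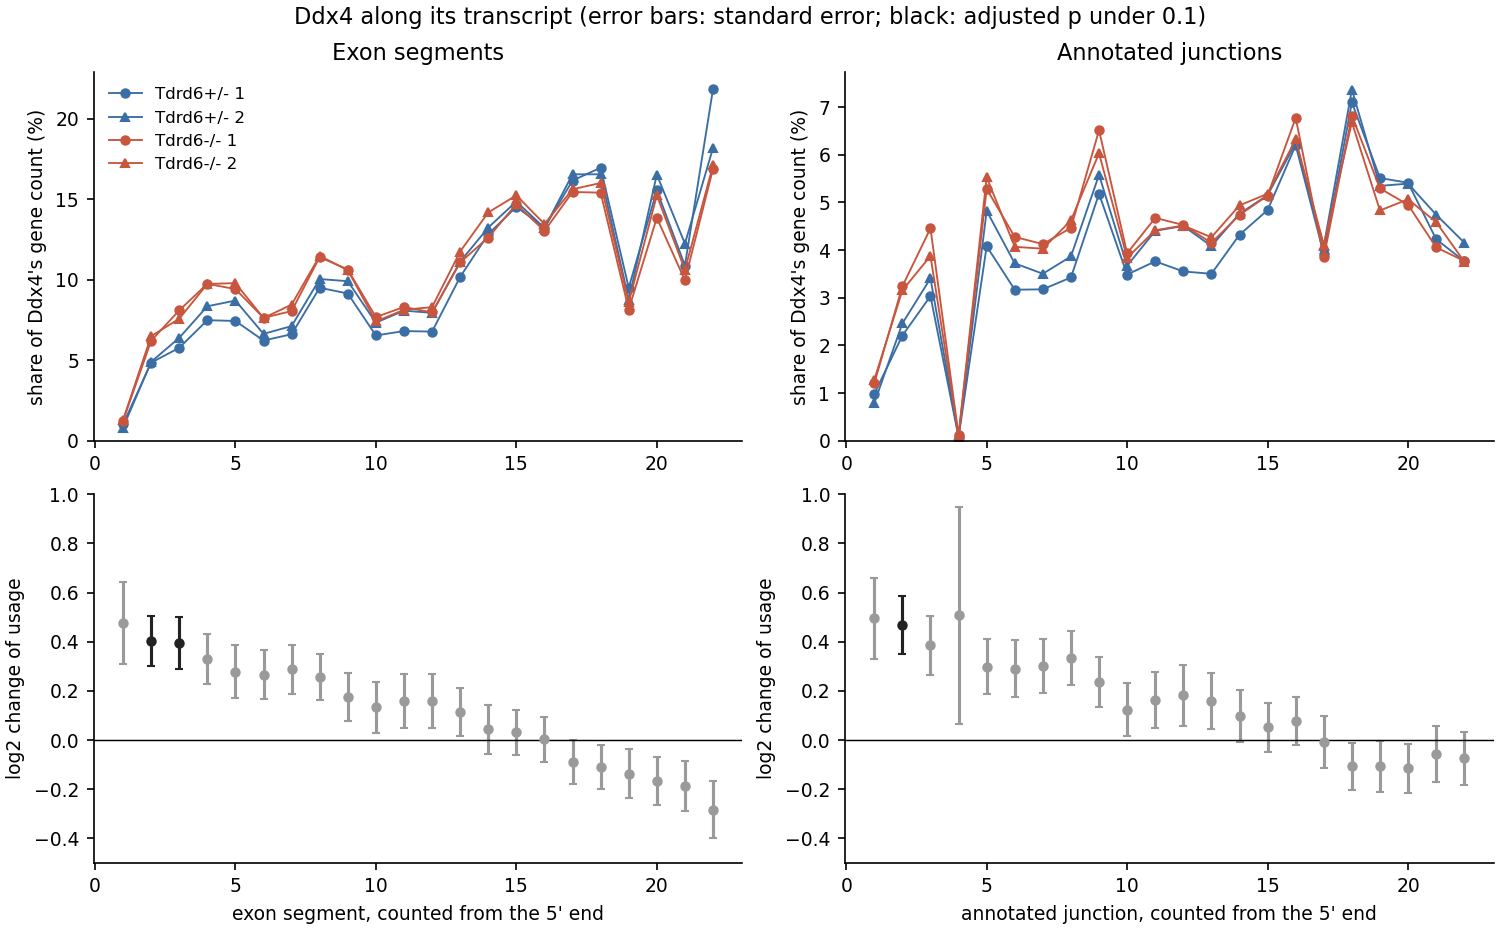
Ddx4 from its 5′ end (left) to its 3′ end (right), for 22 exon segments and 22 annotated junctions, with the share of the Ddx4 count in each sample above and the log2 change of usage with its standard error below (black, adjusted p under 0.1; junction 4 from the 5′ end had too few counts to be tested). The red lines of Tdrd6-/- lie above the blue lines of Tdrd6+/- at the 5′ end, and the changes fall from 0.48 in the first segment to -0.28 in the last.

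The calls in Ddx4 did not hold in every setting. With the replicate number as a block adjusted p was 0.174 for junction 43, 0.166 for segment 21 and 0.264 for segment 20, and in edgeR's test of usage none of the 3 passed. When replicate 1 of Tdrd6+/- was left out adjusted p was 0.855 to 1, and it was 0.729 to 1 when replicate 1 of Tdrd6-/- was left out and 1 when replicate 2 was. Without Tdrd6+/- replicate 2, 6 Ddx4 features were called, among them junction 43 and segment 20 but not segment 21 (adjusted p = 0.211, DESeq2).

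To measure the gradient as 1 value per gene, the counts on the exon segments of the 5′ part and of the 3′ part of a gene, split at the middle segment, were compared with edgeR, a test that was added after the gradient of Ddx4 had been seen and is not independent of it. The 5′ part of Ddx4 held 32.5% and 34.4% of segment counts in Tdrd6+/- and 38.9% and 37.7% in Tdrd6-/- cells (log2 change 0.25, SE 0.05, adjusted p = 0.0482). This was the only one of the 10 genes called, where 1% of the 11259 genes tested were called, 0.577% as higher and 0.426% as lower. The median 5′ share over all genes was 37.5% and 37.9% in Tdrd6+/- and 38.4% and 38.5% in Tdrd6-/- samples, so it moved in the same direction by far less. The 5′ and the 3′ counts were each scaled with their own TMM factors. A shift shared by most genes is thus largely scaled out of the log2 change, though not out of the percentages, and what remains of it was not tested. The shift of Ddx4 did not pass without Tdrd6-/- replicate 1 (log2 change 0.22, adjusted p = 0.472) or without Tdrd6-/- replicate 2 (log2 change 0.29, adjusted p = 0.358).

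The PIWI genes had values of the opposite sign. The 5′ part of Piwil2 held 44.8% and 43.5% of segment counts in Tdrd6+/- and 42.2% and 41.4% in Tdrd6-/- cells (log2 change -0.19, SE 0.06, adjusted p = 0.267, edgeR), and that of Piwil1 45.1% and 45.9% against 43.5% and 44.7% (log2 change -0.13, SE 0.05, adjusted p = 0.39, edgeR). Neither was called in all 4 samples, although Piwil2 passed without Tdrd6+/- replicate 2 (log2 change -0.22, adjusted p = 0.0398). Gtsf1 held 18.8% and 18.2% against 20.8% and 21.2% (log2 change 0.18, SE 0.07, adjusted p = 0.448, edgeR). The values of the remaining 6 lay between -0.16 for Pld6 and 0.12 for Henmt1.

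Outside Ddx4 no exon segment or junction of the 10 genes was called. The smallest p in Gtsf1 belonged to exon segment 26, the second from the 5′ end (log2 change 0.50, SE 0.19, adjusted p = 0.643), and in Mov10l1 to segment 2 (0.42, SE 0.19, adjusted p = 1, both DESeq2). For Henmt1 it was segment 12 (log2 change -0.63, SE 0.32), for Piwil2 junction 25 (0.36, SE 0.17) and for Asz1 segment 11 (0.22, SE 0.18). Piwil1 junction 27 (-0.17, SE 0.11), Pld6 segment 2 (-0.16, SE 0.12), Ddx25 segment 12 (0.17, SE 0.12) and Mael junction 16 (-0.12, SE 0.10) closed the list, and adjusted p was 1 for all of these in DESeq2. Over all tested exon segments the log2 changes lay between -0.13 and 0.10 in Piwil1, between -0.18 and 0.22 in Piwil2 and between -0.09 and 0.10 in Mael.

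Intron usage was asked for 144 of the 145 introns, since Pld6 has only 1 deposited intron and no other to compare it with. Of these 85 passed the filter, between 2 in Henmt1 and 18 in Ddx4. Called were 3 introns, Asz1 intron 7 and Ddx4 intron 21 as higher and Mael intron 4 as lower in Tdrd6-/- cells, where 1.94% of all introns tested were called in either direction, 0.716% as higher and 1.22% as lower. The median log2 change of the 85 was 0.06. Of the 144 introns fitted 13 had an unadjusted p under 0.05, 1 of them below the filter (Asz1 intron 4, named after its value was seen). The share over all introns fitted is not given here, so the 13 cannot be read as an excess.

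Mael intron 4 (chr1:166205916-166225589, 19674 bp, the eighth of 11 from the 5′ end) is the longest of this gene. The controls had 2583 and 1896 counts on it and the Tdrd6-/- samples 1653 and 1541, or 29.0% and 22.4% of the Mael intron counts against 18.4% and 16.2% (log2 change -0.72, SE 0.18, adjusted p = 0.0177, DESeq2). Its share was lower in both Tdrd6-/- samples than in both controls. As intron CPM, scaled to a fixed total of intron counts per library, the level of intron 4 overlapped between the genotypes, at 185 and 155 in Tdrd6+/- against 128 and 160.5 in Tdrd6-/- cells. The other 10 introns of Mael together stood at 454 and 536 against 565 and 828 on this scale, without overlap. This scale depends on the intron total, which was lowest in Tdrd6-/- replicate 2. In raw counts the other introns had 6323 and 6576 against 7322 and 7953. The gene count of Mael was 30825 and 37008 against 41235 and 48481. The lower share of intron 4 is relative to the other introns, and which of the 2 moved depends on the scale and was not tested. Introns 9 and 11, named after their values were seen, had unadjusted p under 0.05, with log2 changes of 0.36 (SE 0.17, adjusted p = 0.422) and 0.37 (SE 0.18, adjusted p = 0.441, both DESeq2).

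Asz1 intron 7 (chr6:18076640-18077062, 423 bp, the fifth of 11 from the 5′ end) behaved differently. The controls had 177 and 122 counts on it and the Tdrd6-/- samples 169 and 187, or 7.41% and 7.78% of the Asz1 intron counts against 11.2% and 15.5% (log2 change 0.90, SE 0.24, adjusted p = 0.0236, DESeq2). Its counts overlapped between the genotypes, while its share did not. Intron 8, the longest of the gene at 26235 bp and named after its values were seen, received 1257 and 792 counts in the controls but 702 and 450 in Tdrd6-/- cells, that is 52.6% and 50.5% of the intron counts against 46.7% and 37.3% (log2 change -0.55, SE 0.19, adjusted p = 0.156, DESeq2). Measured against the exonic count of the gene in place of its other introns, intron 7 gave 0.25 (adjusted p = 0.762) and was not called, while intron 8 (-0.85, adjusted p = 0.0128) and intron 2 (-0.77, adjusted p = 0.0595) were called lower in DESeq2. With the replicate number as a block, intron 8 was called as well (adjusted p = 0.0823).

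Ddx4 intron 21 (chr13:112651419-112652275, 857 bp) is the first intron from the 5′ end and the one that junction 44 removes. Its counts were 430 and 345 in the controls against 463 and 523 in Tdrd6-/- cells, or 4.18% and 4.12% of the Ddx4 intron counts against 5.44% and 6.66% (log2 change 0.57, SE 0.18, adjusted p = 0.0906, DESeq2). The intron was thus higher relative to the other introns of Ddx4. The spliced junction across it was higher relative to the rest of the gene count, without passing the test. These are different references, and measured against the exonic count of the gene the intron did not pass either. The next intron, intron 20, gave a log2 change of 0.11 (SE 0.16, adjusted p = 0.924, DESeq2).

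The exon ends around the called introns of Mael and Asz1 are shown in the same way, since these joins are made when the introns are removed. Asz1 intron 7 is the stretch left of the 513 bp intron of junction 32 after a noncoding exon extension of 90 bp, segment 15, which received 78 and 54 counts in Tdrd6+/- and 74 and 93 in Tdrd6-/- cells. Junction 32 itself received 49 and 61 counts against 67 and 71.
Mael across intron 4 (chr1:166205916-166225589): tagcaacacgagGTGCAAATGGCA
Asz1 junction 32 (chr6:18076640-18077152): aatggttatactGCCTTAACATGG

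**Figure D4:**
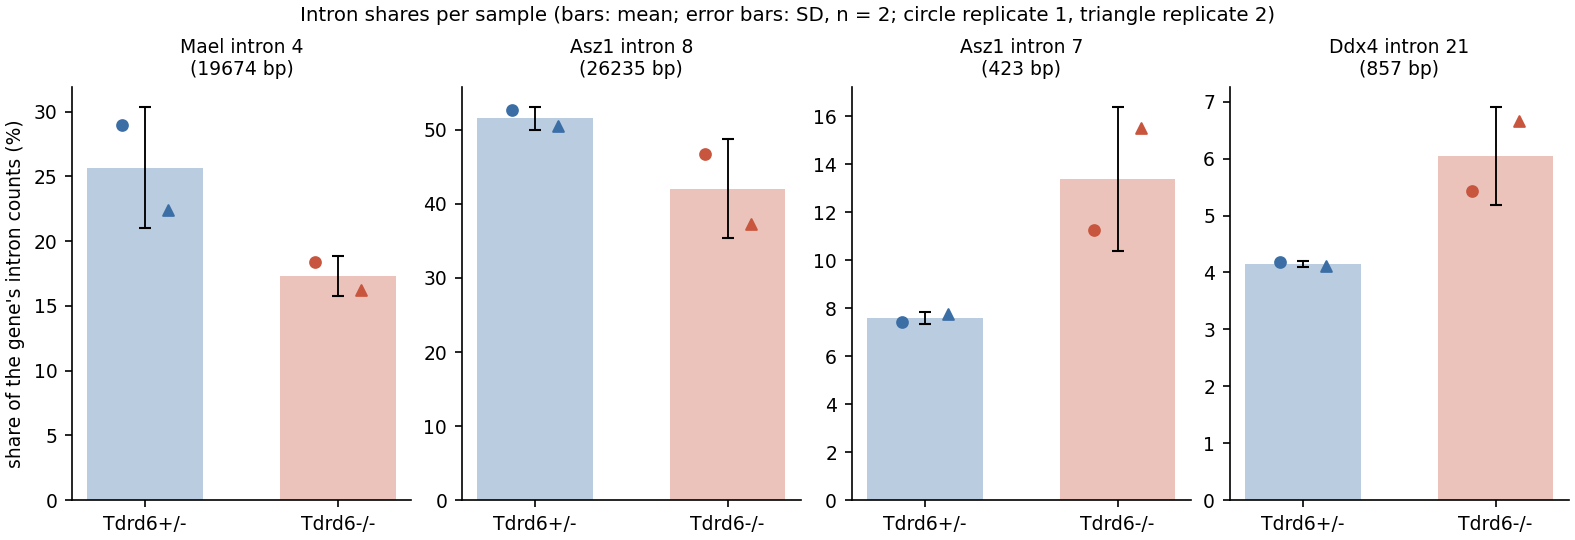
Share of the gene's intron counts that fell on Mael intron 4, Asz1 introns 8 and 7 and Ddx4 intron 21, with bars for the mean, error bars for the SD (n = 2) and a point for each sample (circle, replicate 1; triangle, replicate 2). The 2 long introns on the left go down in Tdrd6-/- cells, to a mean of 17.3% in Mael, and the 2 short ones on the right go up, to 13.4% and 6.05%; Asz1 intron 8 did not pass the test.

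The 3 called introns did not pass in edgeR's test of usage (adjusted p = 1), against the exonic count of the gene (adjusted p = 0.16 for Mael intron 4 and 0.131 for Ddx4 intron 21), when replicate 1 of Tdrd6+/- was left out (adjusted p = 1) or when replicate 2 of Tdrd6-/- was (adjusted p 0.895 to 1). Without Tdrd6+/- replicate 2 only Mael intron 4 was called (adjusted p = 0.011), with adjusted p = 0.1815 for Asz1 intron 7 and 0.518 for Ddx4 intron 21, and without Tdrd6-/- replicate 1 Asz1 intron 8 was called in addition.

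Henmt1 intron 4, its longest at 9955 bp, had the smallest p of the introns of that gene. It received 575 and 396 counts in the controls against 320 and 200 in Tdrd6-/- cells (log2 change -0.46, SE 0.21, adjusted p = 0.379, DESeq2). Piwil1 intron 10 (0.56, SE 0.25, adjusted p = 0.359) and Ddx25 intron 5 (-0.52, SE 0.25, adjusted p = 0.423) had the smallest p of their genes in the same test. For Gtsf1 this was intron 5 (0.48, SE 0.27, adjusted p = 0.563), for Mov10l1 intron 22 (-0.36, SE 0.20, adjusted p = 0.54) and for Piwil2 intron 21 (-0.30, SE 0.19, adjusted p = 0.632).

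Length ran through these values, a description made after they were seen. Of the 9 genes with several introns the longest intron had a negative log2 change in 7, with a median of -0.36, and the other 76 introns tested were negative in 30 cases, with a median of 0.08. Among introns of at least 5000 bp 13 of 17 were negative (76.5%), beside 63.1% over all genes whose introns could be placed. Among those under 1000 bp 9 of 29 were negative (31%), beside 31.8% over all such genes. The same lean was present across all genes whose introns could be placed, where the longest intron was negative in 70.8% of 4067 cases and the others in 43.1% of 13842, so it was not particular to the 10 genes. Piwil1, whose longest intron has 1938 bp, and Gtsf1 were the exceptions, with 0.14 and 0.01.

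The ratio of summed intron counts to the gene count was tested as an interaction in edgeR on 13030 genes. A change shared by all introns of a gene would alter it, and so would a change in a single long intron. All 10 genes were tested. Asz1 was called, as lower in Tdrd6-/- cells, where 2.99% of all genes were called in either direction, 1.2% as higher and 1.8% as lower.

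Asz1 had the most intron counts relative to its gene count of the 10 genes, a ratio that was not corrected for intron length. It was counted at 160 and 119 intron counts per 100 gene counts in Tdrd6+/- and at 89.4 and 64.8 in Tdrd6-/- cells. All counts of the libraries together gave 52.7 and 41.9 against 42.5 and 30.6. The whole libraries thus also differed, with Tdrd6+/- replicate 1 highest and Tdrd6-/- replicate 2 lowest. Within Asz1, intron 8 alone held 52.6% and 50.5% of the intron counts in Tdrd6+/- against 46.7% and 37.3% in Tdrd6-/- cells. As intron CPM it stood at 90.2 and 64.6 in Tdrd6+/- against 54.2 and 46.9 in Tdrd6-/- cells, without overlap. The other introns of Asz1 together stood at 81.15 and 63.4 against 61.8 and 78.7 on this scale, with overlap. Divided by the library's own ratio, Asz1 stood at 3.04 and 2.85 in Tdrd6+/- and at 2.10 and 2.12 in Tdrd6-/- cells, without overlap (log2 change -0.56, SE 0.16, adjusted p = 0.0563, edgeR with TMM within each kind of count). It did not pass without Tdrd6+/- replicate 1 (-0.435, adjusted p = 0.791), without Tdrd6-/- replicate 2 (-0.54, adjusted p = 0.103) or with 1 common scaling of both kinds of count (-0.86, adjusted p = 0.113).

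The log2 changes of this ratio were smaller in the other genes. Pld6 was the highest in the other direction, at 0.46 and 0.516 times the library's ratio in Tdrd6+/- and 0.591 and 0.761 times in Tdrd6-/- cells (log2 change 0.38, SE 0.16, adjusted p = 0.261, edgeR), and it was called without Tdrd6-/- replicate 1 (0.54, adjusted p = 0.0394). Henmt1, at 1.04 and 0.995 against 0.885 and 0.877, gave -0.28 (SE 0.16, adjusted p = 0.4365, edgeR) and Piwil1, at 0.37 and 0.446 against 0.462 and 0.582, gave 0.27 (SE 0.20, adjusted p = 0.582, edgeR). In Ddx4, Mael, Ddx25, Mov10l1, Gtsf1 and Piwil2 the log2 changes lay between -0.14 and 0.08.

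The 10 genes differed widely in their intron counts relative to their gene counts, a ratio that was not corrected for intron length. Ddx25 and Piwil1 were lowest, at 9.03 to 12.95 and 17.8 to 19.6 intron counts per 100 gene counts, and Mov10l1 and Asz1 highest, at 58.6 to 88.9 and 64.8 to 160. The remaining 6 lay between 18.3 and 54.6.

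**Figure D5:**
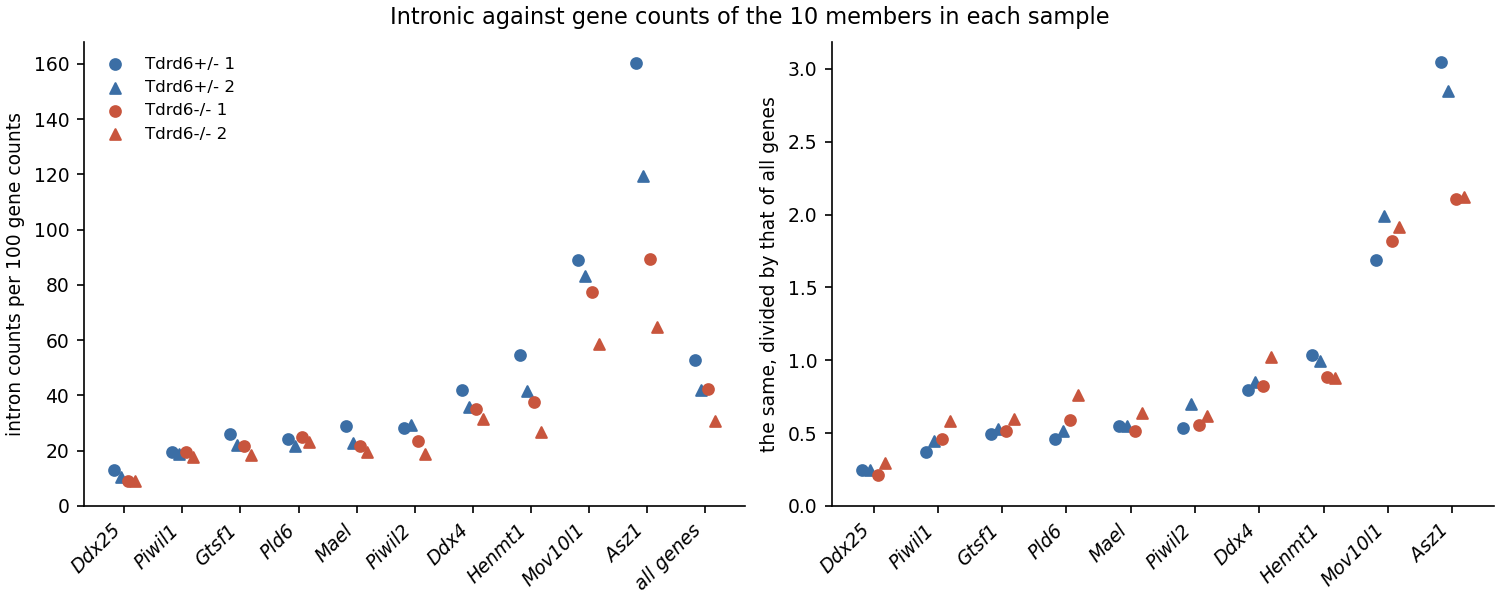
Summed intron counts per 100 gene counts for each gene and for all genes of the library (left), and the same divided by the value of the library (right), in each sample (blue, Tdrd6+/-; red, Tdrd6-/-; circle, replicate 1; triangle, replicate 2). Asz1 is highest, and after division its red points at 2.10 and 2.12 lie below its blue points at 3.04 and 2.85.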

How the data were processed

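RNA of 4 samples of hCD4+ spermatocytes was sequenced as rRNA-depleted, strand-specific total RNA. The authors aligned the reads with GSNAP to mm10 with the genes of Ensembl, and base calls were made with bcl2fastq 1.8.4 per the submitters' processing notes. The deposited tables hold raw counts of fragments per gene, exon segment, junction and intron, with no normalization. The counting program and its strand setting are not given in the sources used here. All sample columns were mapped to a sample.

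Samples were grouped by genotype. Gene counts were tested with edgeR 4.0.16 (TMM factors, quasi-likelihood test, R 4.3.3) after edgeR's filter on low counts. Usage of exon segments and junctions, and of introns, was tested with the models of DEXSeq and JunctionSeq, written as a likelihood ratio test in DESeq2 1.42.0, for features with at least 10 counts in all and a mean count above 53.4 (exon segments and junctions) or 85.5 (introns). Here the standard error is that of the fitted log2 change. Ratios of intron to gene counts and of 5′ to 3′ segments were tested as interactions in edgeR. P-values were adjusted by Benjamini-Hochberg over all features, with a false discovery rate of 0.1. The steps were run on simulated counts with changes larger than those tested in the 10 genes with all 4 samples. The simulation therefore does not show how well changes of their size are found.

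The members and all lists were chosen with earlier results of these data known. The text names every member, every called feature of a member, the feature with the smallest p of each other member, and the called genes of the pathway list. The 5′ to 3′ test, the level over junctions and the account of intron length were added after values had been seen. Features are numbered along the chromosome. Positions on GRCm38 were taken from GENCODE M21 where the numbers of features matched, which left the segments and junctions of Henmt1 unplaced. Exon lengths join all GENCODE M21 exons of a gene, whether or not its features matched, so they can exceed the length that was counted.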

Additional observations from a re-analysis of the deposited data

How the results depend on the processing

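Over the 4 genotype comparisons and the 5′ to 3′ balance, 532 values of named genes and features were recomputed under alternative settings, of which 457 kept their direction and their side of the threshold, 50 lost the call, 3 gained one and 22 changed sign. With 2 samples a genotype each call rests on few residual degrees of freedom, and the cause of the changes below was not tested. With no filter on low counts 75 genes were called in expression in place of 794 and 0 of the members, and 0 members were called with RLE factors or at a false discovery rate of 0.05. Leaving out 1 sample gave 257 to 1064 genes and 0 to 2 members, with log2 changes of -0.29 to 0.19 for Piwil2 and -0.029 to 0.25 for Asz1. For the intron to gene ratio, 244 genes were called with DESeq2, 247 with 1 common scaling and 190 at a rate of 0.05 in place of 390, with 0 members in the last 2 settings. Common scaling turned Piwil1 to -0.031, Ddx4 to -0.22 and Gtsf1 to -0.27. Leaving out 1 sample gave 58 to 1145 genes and 0 to 2 members, with -0.26 to 0.15 for Ddx25, -0.15 to 0.12 for Mael, -0.054 to 0.12 for Gtsf1 and -0.048 to 0.21 for Ddx4. In the 5′ to 3′ balance 55 genes were called at a rate of 0.05 and 17 to 547 genes and 0 to 2 members without 1 sample, in place of 113. Values near 0 changed sign, for Asz1 to 0.0065 with DESeq2, 0.012 with no filter and -0.028 to 0.036 without 1 sample, and for Mov10l1 to 0.0022 with no filter and -0.082 to 0.067 without 1 sample. Without 1 sample Ddx25 ran from -0.00047 to 0.094 and Mael from -0.052 to 0.089. For introns, 2 were called with edgeR's usage test, 338 at a rate of 0.05 and 1266 against the exonic count in place of 561, with 0 members in the first, and 4 to 1175 introns and 0 to 4 members without 1 sample. For exon segments and junctions edgeR's usage test called 81 and 0 members, in place of 327 and 3, and leaving out 1 sample 51 to 763 and 0 to 6. Of the 10 members 4 kept their place in the order of levels with no length correction and 1 in the order by junctions.

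With the replicate number as a block, 1046 genes, 388 ratios, 260 balances, 881 introns and 306 exon segments and junctions were called, and of the members 1, 1, 1, 4 and 0. The labels do not say that the numbers pair the samples, and the 2 pairs deviated together with a correlation of -0.108 in gene counts and 0.0499 in intron counts. With the numbers crossed, 1175 genes and 279 exon segments and junctions were called, with 1 member feature in each.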

Other observations

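A junction of Ddx4 that leaves out the coding exon of 78 bp at the fourth place from the 5′ end (junction 41) was rare in all samples, with 19 and 20 counts in Tdrd6+/- and 28 and 29 in Tdrd6-/- cells, which was too few to be tested. The junctions that include this exon received 745 and 798 counts in the controls against 1081 and 972 in Tdrd6-/- cells on its 5′ side, and 1002 and 1130 against 1282 and 1386 on its 3′ side. The joins are shown as before, with the upstream exon in lower case and the downstream exon in capitals, since the skipped and the included form share an exon end.
Ddx4 junction 40 (chr13:112636046-112641149): taggaagcagagATATTGGCGAGT
Ddx4 junction 41 (chr13:112636046-112644508): cagcttcatcagATATTGGCGAGT

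Of the 13 unannotated junctions of the 10 genes, 4 belonged to Ddx4, 3 to Pld6 and 2 to Piwil1. Together they received 527 and 503 counts in Tdrd6+/- and 576 and 548 in Tdrd6-/- cells, and none was called.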
